A study of Mus musculus with 2 samples.

Results

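The 10 genes described here encode the enzymes and coat proteins that store triglyceride in the lipid droplet and release it: Pnpla2, Pnpla3, Lipe, Mgll, Abhd5, G0s2, Plin1, Plin2, Plin4 and Cidec. They were taken by symbol from the 32285 genes counted in each library, and all 10 were found in both. Single nuclei of epididymal WAT, a visceral white fat depot, were profiled in 2 libraries, HF-PBS and HF-HHT, with 1 library per condition. HHT (homoharringtonine), an alkaloid from plum yews, stops translation at the ribosome. Male C57BL/6 N mice, 8 weeks old at the start, were fed HF, a high-fat diet, for 6 weeks. For 8 more weeks they stayed on HF and received intraperitoneal injections 3 times per week, of PBS in HF-PBS or of HHT, dissolved in DMSO and diluted in PBS, in HF-HHT. Both groups thus received the same diet, no engineered allele is named for either, and each library pooled the frozen tissue of 3 mice, so that differences between mice cannot be seen.

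Lipolysis frees fatty acids from stored triglyceride in consecutive cuts. Pnpla2 (ATGL) makes the first cut and needs its co-activator Abhd5 (CGI-58), while G0s2 is a small protein that binds and inhibits Pnpla2. Lipe (hormone-sensitive lipase) cuts diacylglycerol and Mgll (monoglyceride lipase) makes the last cut. In the unstimulated adipocyte, Plin1 coats the droplet and holds Abhd5 away from Pnpla2, and on catecholamine or fasting signals its phosphorylation releases Abhd5. Cidec (FSP27) passes lipid between droplets and helps to build the single large droplet of white fat, and Plin2 coats droplets in many cell types, among them lipid-laden macrophages.

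The promoters of 4 of these genes are shown because their counts carry the results below: Abhd5 and G0s2 had the highest ratios between the libraries in adipocyte nuclei, Cidec had the lowest, and Mgll was the member that was lower in macrophages. Each run is the RefSeq sequence on GRCm38.p6 before the start site, written from 5′ to 3′ on the gene's strand, without bases that GENCODE counts as transcribed. Capitals mark matches to the motifs searched, which are named after the sequences.
Abhd5, chr9:122351366-122351607, plus strand: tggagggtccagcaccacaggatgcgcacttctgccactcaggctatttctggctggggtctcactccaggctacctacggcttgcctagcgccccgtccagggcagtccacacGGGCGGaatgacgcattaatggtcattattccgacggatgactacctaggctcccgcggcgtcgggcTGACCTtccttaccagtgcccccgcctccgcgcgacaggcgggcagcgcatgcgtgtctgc
G0s2, chr1:193273218-193273438, minus strand: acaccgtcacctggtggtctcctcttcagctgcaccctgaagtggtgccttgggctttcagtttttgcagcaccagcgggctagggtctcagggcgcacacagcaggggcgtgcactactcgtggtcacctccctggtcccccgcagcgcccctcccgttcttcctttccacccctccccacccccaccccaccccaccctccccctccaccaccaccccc
Mgll, chr6:88724162-88724411, plus strand: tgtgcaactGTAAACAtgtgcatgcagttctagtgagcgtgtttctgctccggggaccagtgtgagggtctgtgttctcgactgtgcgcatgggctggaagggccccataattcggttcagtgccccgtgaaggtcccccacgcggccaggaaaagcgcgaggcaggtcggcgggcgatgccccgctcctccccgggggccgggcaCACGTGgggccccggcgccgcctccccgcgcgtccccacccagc
Cidec, chr6:113435761-113436010, minus strand: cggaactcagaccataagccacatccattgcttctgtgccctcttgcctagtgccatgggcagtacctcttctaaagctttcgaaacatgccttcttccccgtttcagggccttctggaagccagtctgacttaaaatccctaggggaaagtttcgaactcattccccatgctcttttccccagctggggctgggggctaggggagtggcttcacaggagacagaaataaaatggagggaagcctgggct

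RefSeq gave 13 promoters for the 10 genes, with 1 more each for Lipe, Mgll and Cidec, and the 250 bases before each start were searched on both strands, where matches to different motifs did not overlap. AGGTCA, the half-site of nuclear receptors such as PPARG, was found before Abhd5 (69 bases from the start) and before Plin2 (218 bases), that is in 2 of 13 promoters against 14.02% of all 32851 mouse promoters of that length. The E-box CACGTG was found before Mgll (44 bases) and before Lipe (155 bases), and 6.02% of all promoters held it. GTAAACA, the motif of FOXO factors, was found in the shown promoter of Mgll and in the downstream promoter of Lipe, and in 3.17% of all promoters. The CRE letters TGACGTCA stood before Pnpla3 alone among the members (1.55% of all promoters). CCAAT occurred in 3 of 13 promoters (33.8% of all), and GGGCGG in those of Pnpla2, Pnpla3, Lipe, Mgll, Abhd5 and G0s2 (32.7% of all); for Mgll and G0s2 it lies outside the bases shown. TATAAA, searched on the gene's strand, was found before no member (7.59% of all). Neither promoter of Cidec and not that of Plin1 held any of these letters. The matches describe the sequence only.

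In the GENCODE vM21 annotation of GRCm38, G0s2 is a short gene of 2 exons (chr1:193272161-193273217, minus strand) that lies opposite Lamb3, and its 1057 bases contrast with the 103949 bases of Mgll (chr6:88724412-88828360, plus strand). Cidec lies on the same chromosome as Mgll (chr6:113424634-113435760, minus strand), and Abhd5 on chr9:122351608-122381524 (plus strand). Pnpla2 (chr7:141455198-141460743, plus), Lipe (chr7:25379527-25398710, minus) and Plin1 (chr7:79720218-79732903, minus) share chromosome 7. Plin2 is at chr4:86648386-86670060 (minus), Plin4 at chr17:56100591-56109803 (minus) and Pnpla3 at chr15:84167837-84187236 (plus). Nuclear RNA holds unspliced transcripts and the genes differ in length, so each gene is compared only with itself.

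In the files, HF-PBS held 76197757 UMIs (unique molecular identifiers, 1 per captured RNA molecule) and HF-HHT 73313558, and 6631 and 6440 nuclei were kept. Clusters of nuclei were named from marker lists that contain none of the 10 genes. Adipocyte nuclei numbered 152 of 6631 in HF-PBS (2.29%, exact binomial 95% interval 1.95% to 2.68%) and 840 of 6440 in HF-HHT (13.04%, 12.2% to 13.9%). The HF-PBS values thus rest on fewer nuclei. Both counts depend on the upper limits of UMIs and genes (percentile 95). Clustered anew without these limits, 301 nuclei of HF-PBS and 1170 of HF-HHT were named adipocytes. In HF-PBS the limits thus left out a larger part of the adipocyte nuclei. Their 10 markers, Adipoq and Lep among them, summed to 29681 CPM in HF-PBS, against 38282 CPM in HF-HHT, where CPM scales a gene's UMIs to all UMIs of the class. In free RNA they summed to 2554 and 9083 CPM, and in the nuclei no marker was at 0. Free RNA is the profile of empty droplets, and it can enter the counts of any nucleus. The 692 nuclei of a duct-epithelium-like class and the 118 of a multiciliated class came from HF-HHT alone, and tissue taken along with the fat cannot be told apart from treatment as their source. With 1 library per condition no test is possible. A gene is called higher or lower at a ratio of at least 1.5-fold, and all intervals are 95% intervals of counting error only.

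Adipocyte nuclei of HF-HHT held more Abhd5, G0s2, Plin1 and Plin4 and less Cidec than those of HF-PBS. Of the 10 members, 5 were higher (Pnpla2, Abhd5, G0s2, Plin1 and Plin4), 1 was lower (Cidec) and 4 were neither. Of all 12574 measured genes of the class, 35.4% were higher and 12.5% lower, which the members' counts are close to. Their median log2 ratio was 0.70, against 0.31 for all measured genes. Much of the ratio of a gene near that median is thus shared by the genes of the class.

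**Figure D1:**
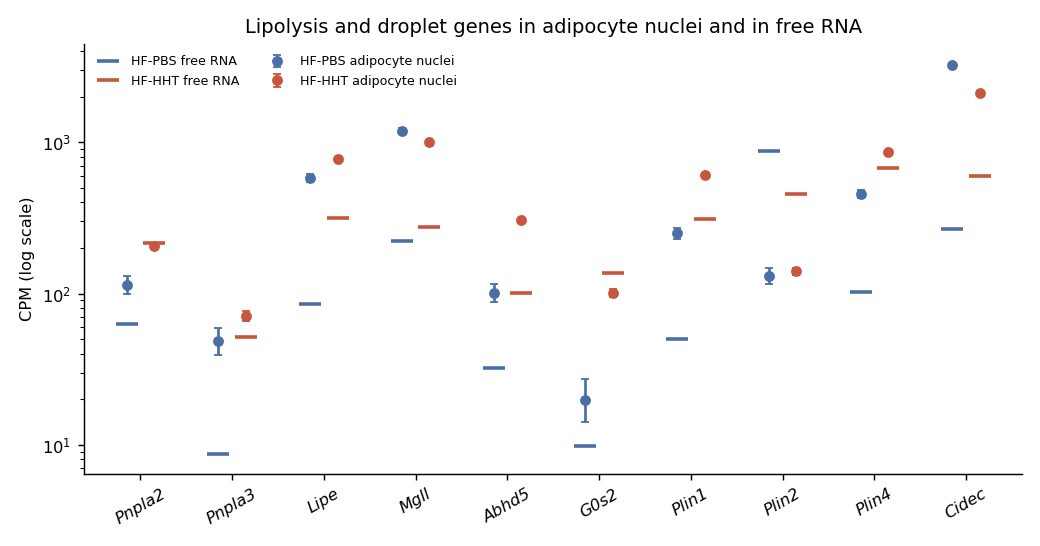
Levels of the 10 genes in adipocyte nuclei (points, CPM on a log scale, with 95% Poisson intervals) and in free RNA (horizontal marks) of each library. Abhd5, G0s2, Plin1 and Plin4 lie higher in HF-HHT and Cidec lower, and Plin2 lies below free RNA in both libraries.

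Among the lipases and their regulators, Pnpla2 was at 114 CPM in HF-PBS (224 UMIs) and 206 CPM in HF-HHT (2048 UMIs), a log2 ratio of 0.85 (95% interval 0.65 to 1.06). Abhd5, its co-activator, was at 101 CPM and 307 CPM, a log2 ratio of 1.60 (1.40 to 1.82). G0s2, its inhibitor, had the highest ratio of the 10 genes. It was at 19.9 CPM in HF-PBS, from 39 UMIs, and at 101 CPM in HF-HHT, from 1006 UMIs, a log2 ratio of 2.35 (1.89 to 2.85), which lies above 96.4% of measured genes. The activator and the inhibitor of Pnpla2 were thus both higher in HF-HHT, and both by more than Pnpla2 itself, since neither interval reaches that of Pnpla2. Lipe was at 582 CPM and 780 CPM, a log2 ratio of 0.42 (0.33 to 0.51), close to the median of all measured genes. Mgll was at 1195 CPM and 1010 CPM, a log2 ratio of -0.24 (-0.31 to -0.18). After thinning each nucleus to 2000 UMIs in a random draw, the ratio was 0.01. In a separate draw at that depth, Mgll was at 1166 CPM (HF-PBS) and 1011 CPM (HF-HHT), close to the levels without thinning. Pnpla3 (adiponutrin), a relative of Pnpla2 that binds Abhd5, was at 48.5 CPM and 70.8 CPM, a log2 ratio of 0.55 (0.24 to 0.87). None of these last 3 genes reached 1.5-fold.

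The droplet coats differed among themselves. Plin1 was at 250 CPM (HF-PBS) and 608 CPM (HF-HHT), a log2 ratio of 1.28 (1.15 to 1.42). Plin4, which coats small and newly formed droplets, was at 456 CPM and 860 CPM, with a log2 ratio of 0.91 (0.81 to 1.02). Plin2 was at 131 CPM and 141 CPM, a log2 ratio of 0.11 (-0.08 to 0.31), and was the member whose interval included 0. Cidec was the member that was lower: 3237 CPM in HF-PBS (6346 UMIs) against 2128 CPM in HF-HHT (21124 UMIs), a log2 ratio of -0.61 (-0.65 to -0.56). Its ratio lies above only 12.1% of measured genes.

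**Figure D2:**
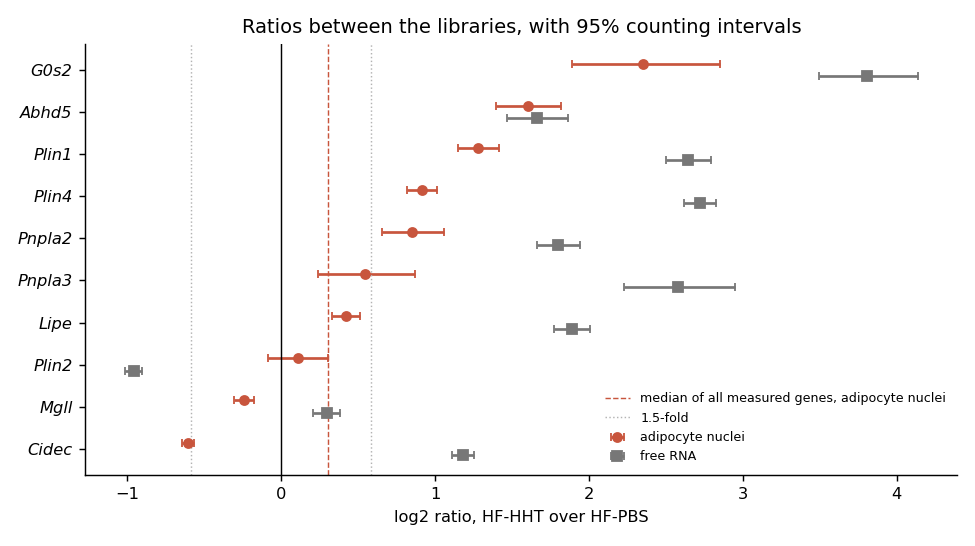
Log2 ratio of HF-HHT over HF-PBS for each gene in adipocyte nuclei (circles) and in free RNA (squares), with 95% counting intervals. The dashed line is the median of all measured genes in adipocyte nuclei (0.31), the dotted lines mark 1.5-fold, and G0s2 is highest and Cidec lowest in the nuclei.

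Measured from the class median instead of from 0, the order of the members is the same, and the log2 difference was 2.04 for G0s2, 1.30 for Abhd5, 0.97 for Plin1, 0.61 for Plin4, 0.54 for Pnpla2, 0.24 for Pnpla3, 0.12 for Lipe, -0.20 for Plin2, -0.55 for Mgll and -0.91 for Cidec. On that measure Pnpla2 stood below 1.5-fold. TMM factors of edgeR and median-of-ratios size factors, which scale by the bulk of genes, lowered every log2 ratio by 0.27 and 0.29. With both the split of the members was 4 higher and 1 lower, and Pnpla2 lay just under 1.5-fold (log2 ratio 0.58 and 0.56). Of all measured genes 25.3% were then higher and 19.1% lower with TMM, and 24.5% and 19.97% with size factors. Plin2 changed sign under both scalings (-0.16 and -0.18). Abhd5, G0s2, Plin1 and Plin4 stayed above 1.5-fold under all 12 alternatives of processing that were applied to single ratios. Among these, letting the members into the clustering and clustering more finely gave the same adipocyte ratios as the main setting, so they add no check.

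Single nuclei gave the same picture at equal depth. When every nucleus was thinned to 2000 UMIs, which left out 1 nucleus of HF-PBS and 7 of HF-HHT, G0s2 was found in 3.31% of HF-PBS adipocyte nuclei (1.08% to 7.56%) and 17.6% of HF-HHT ones (15.1% to 20.4%). Without thinning the shares were 16.4% and 51.9%, at median depths of 13092 and 11603 UMIs. Abhd5 was found in 18.5% and 42.9% of thinned nuclei, Plin1 in 41.7% and 64.8%, and Plin4 in 51.7% and 76.2%. Cidec was found in 96.7% and 92.4%, so its lower level was a lower count in nuclei that nearly all held it: the median nucleus had 3189 CPM in HF-PBS against 1969 CPM in HF-HHT. As background, at 1000 UMIs per nucleus G0s2 was found in 0 of 632 B-cell-like nuclei of HF-PBS (exact binomial upper limit 0.582%) and in 0 of 39 of HF-HHT (9.03%), and Plin1 in 1.58% and 7.69% of them. In adipocyte nuclei at that depth, G0s2 was found in 1.99% and 8.57% and Plin1 in 21.9% and 45.5%.

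The ratios depended in part on the depth of the nucleus. In the shallower part of the adipocyte nuclei (76 of HF-PBS and 420 of HF-HHT, below the median depth of each library), the log2 ratio of G0s2 was 1.62 (0.97 to 2.36) and that of Abhd5 1.13 (0.83 to 1.45). In the deeper part they were 2.84 (2.19 to 3.58) and 1.94 (1.65 to 2.24). Plin4 had nearly equal ratios in both parts (0.92 and 0.91), and so had Lipe (0.40 and 0.44). Plin2 was at 0.56 (0.19 to 0.95) in the shallower part and -0.09 (-0.32 to 0.14) in the deeper. Cidec had a negative log2 ratio in both parts (-0.55 and -0.63), short of 1.5-fold in the shallower.

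Pnpla3 differed between groups of adipocyte nuclei. In HF-PBS, 83.2% of its UMIs lay in the 10% of adipocyte nuclei with most, and in HF-HHT 69.0%, against 76.9% and 43.5% for G0s2, which is also sparse, and 24.2% and 25.3% for Cidec, which has far more counts. A second clustering, made without the 10 genes, split the adipocyte nuclei into 4 subclusters. They are called here by their leading genes: a Cyp2e1, Fam13a and Adrb3 subcluster (30 HF-PBS and 308 HF-HHT nuclei), a Mest, Grid1 and Lama3 subcluster (73 and 240), an Ifi203, Cxcl9 and Iigp1 subcluster (46 and 230), and a Fosl1, Tnc and Areg subcluster with 3 HF-PBS nuclei and 62 HF-HHT nuclei. Pnpla3 was at 119 CPM and 91.0 CPM (HF-PBS and HF-HHT) in the first and at 55.7 and 111 CPM in the second. In the third, which is led by interferon-induced genes, it was at 6.78 CPM (1.85 to 17.4, 4 UMIs) and 15.8 CPM (11.6 to 21.1, 46 UMIs). Free RNA was at 8.68 CPM in HF-PBS, within that interval, and at 51.9 CPM in HF-HHT, above it. Pnpla3 was thus low in the Ifi203 subcluster of both libraries, with few counts in HF-PBS. In the Fosl1 subcluster of HF-HHT it was also low, at 13.2 CPM (5.68 to 25.9, 8 UMIs).

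**Figure D3:**
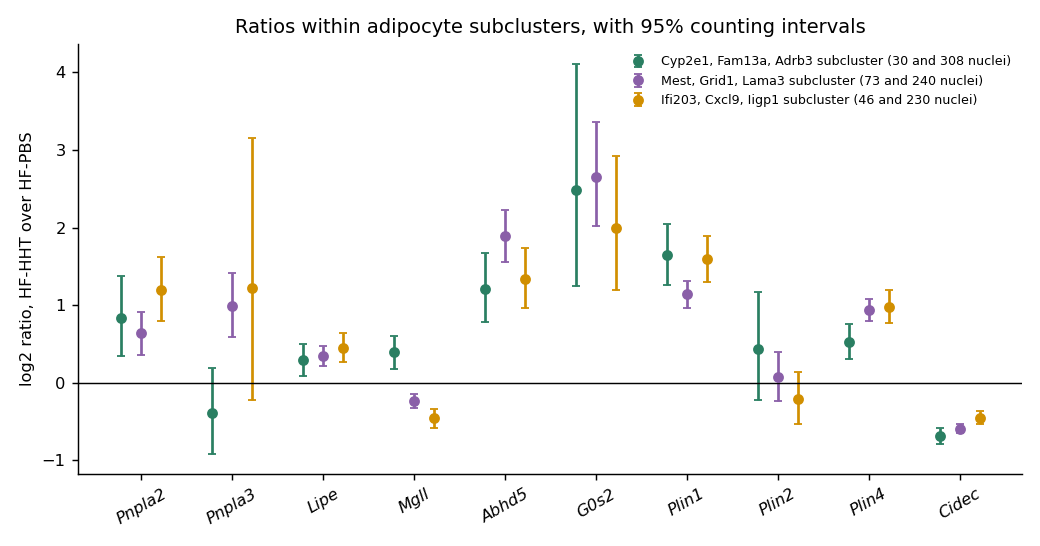
Log2 ratio of HF-HHT over HF-PBS for each gene within the 3 larger adipocyte subclusters, named by leading genes, with 95% counting intervals. Cidec lies below 0 and Abhd5, G0s2, Plin1, Plin4 and Pnpla2 above 0 in each, while Mgll and Pnpla3 differ in sign between subclusters.

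Within the first 3 subclusters the members that were higher or lower kept their direction, but not all reached 1.5-fold. G0s2 had log2 ratios of 2.48, 2.66 and 1.99, Abhd5 of 1.21, 1.89 and 1.34, and Plin1 of 1.64, 1.14 and 1.59. Plin4 had 0.53, 0.93 and 0.97, with the first below 1.5-fold, and Pnpla2 had 0.83, 0.63 and 1.19. Cidec had -0.69, -0.59 and -0.45, with the last below 1.5-fold. The ratio of Mgll was 0.39 (0.18 to 0.61) in the Cyp2e1 subcluster but -0.24 (-0.33 to -0.15) in the Mest subcluster and -0.46 (-0.58 to -0.34) in the Ifi203 subcluster, so its small ratio over all adipocyte nuclei joins opposite values. The shares of the subclusters differed between the libraries, and with the same mix in both, the ratio of Cidec was -0.58, just short of 1.5-fold. In the Fosl1 subcluster of HF-HHT, Plin2 reached 532 CPM (475 to 593), against 101 to 137 CPM in the other 3, while G0s2 stood at 23.0 CPM (12.6 to 38.7), against 87.5 to 125 CPM. With 3 nuclei in HF-PBS no ratio is given for that subcluster.

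For most members free RNA differed more between the libraries than adipocyte nuclei did. The 10 genes together made up 1717 CPM (HF-PBS) and 3134 CPM (HF-HHT) of free RNA, and the log2 ratio of the 10 adipocyte markers there was 1.83. G0s2 was at 9.79 CPM (88 UMIs) and 137 CPM (1101 UMIs), a log2 ratio of 3.81 (3.49 to 4.14). Plin4 had a log2 ratio of 2.72, Plin1 of 2.65, Pnpla3 of 2.58, Lipe of 1.89, Pnpla2 of 1.80, Abhd5 of 1.66 and Cidec of 1.18. Mgll was nearly level (0.30), and Plin2 was the member that was lower in free RNA of HF-HHT, with 880 CPM against 453 CPM, a log2 ratio of -0.96 (-1.02 to -0.90).

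The members also differed in how their level in adipocyte nuclei compared with free RNA of the same library. Cidec stood 12.2 times above free RNA in HF-PBS and 3.53 times in HF-HHT, and Mgll 5.37 and 3.69 times. G0s2 was 2.03 times above free RNA in HF-PBS, but in HF-HHT its level in adipocyte nuclei was 0.739 times that in free RNA, and Pnpla2 was at 0.949 times. Plin2 lay far below free RNA in both libraries (0.148 and 0.311 times). From the markers of 17 other lists, free RNA was estimated to supply 8.07% of the UMIs of adipocyte nuclei in HF-PBS and 4.51% in HF-HHT (medians over lists that ranged from 2.22% to 552% and from 2.76% to 75.2%). At these median shares, free RNA would account for between 0.661% and 6.10% of the level of each member in adipocyte nuclei except Plin2, where it would account for 54.4% in HF-PBS and 14.5% in HF-HHT. At the upper ends of the ranges, it would exceed the levels of G0s2 and Plin2 in both libraries. In HF-PBS it would then also exceed those of several other members. With free RNA subtracted, the log2 ratio of Plin2 was 0.96, that of Cidec was -0.67, and those of the other members stayed within their counting intervals. Markers of other cells in adipocyte nuclei also moved: the 8 macrophage markers summed to 131 CPM (HF-PBS) and 46.0 CPM (HF-HHT), the 6 lipid-associated macrophage markers to 163 and 18.03 CPM, and the 10 APC (adipocyte progenitor cell) markers to 198 and 65.7 CPM, with none at 0. The 6 duct epithelial markers summed to 257 and 148 CPM, with Pax8 and Epcam at 0 in HF-PBS, and the 8 erythroid markers to 6.12 and 152 CPM, with 5 at 0 in HF-PBS. Their part in the ratios was not tested.

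Outside adipocytes most members lay below free RNA. A level is called above free RNA where its whole interval lies above it. Over the 9 other classes compared in HF-PBS and the 11 in HF-HHT, Pnpla2, Pnpla3, Lipe, Abhd5, G0s2, Plin1, Plin4 and Cidec stood above free RNA in none. Against a sparser estimate of free RNA, from barcodes with 10 to 100 UMIs (74848 UMIs in HF-PBS), Mgll stood above it in endothelium alone among these classes. That estimate held G0s2 at 0 and Abhd5 at 13.4 CPM in HF-PBS, too few counts to compare these genes with. Plin1, for example, lay between 0 and 9.85 CPM in HF-PBS against 49.7 CPM in free RNA, and between 13.7 and 59.5 CPM in HF-HHT against 312 CPM. Its log2 ratio was 2.43 in macrophages, 2.26 in mesothelial nuclei and 2.04 in T or NK nuclei, beside 2.65 in free RNA. Adipocyte markers in macrophages moved the same way, from 229 CPM to 767 CPM. At the estimated shares, free RNA would supply 123% and 124% of Plin1 in macrophages of HF-PBS and HF-HHT, 93.0% and 115% of Plin4, and 116% and 141% of Cidec, so their counts there are not read as expression. It would supply 39.0% and 59.97% of Lipe, 39.1% and 62.8% of Pnpla2, and 68.1% and 129% of G0s2. For Abhd5, which stood at 29.6 and 29.2 CPM in macrophages (log2 ratio -0.02, -0.22 to 0.18), it would supply 11.2% and 31.2%. The macrophage shares, 10.3% and 8.97%, are medians over 12 lists that ranged from 5.88% to 142% and from 6.01% to 262%. At these medians the levels of Abhd5, Lipe and Pnpla2 in macrophages exceed what free RNA gives, but at the upper ends of the ranges they do not. The 2 members that did stand above free RNA in these classes were Mgll and Plin2. An erythroid-like class is left out of these counts, since the free RNA share estimated for its 54 nuclei of HF-PBS was 128%. In its 224 nuclei of HF-HHT, where that share was 48.2%, Mgll stood at 556 CPM (296 UMIs), above free RNA (273 CPM).

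**Figure D4:**
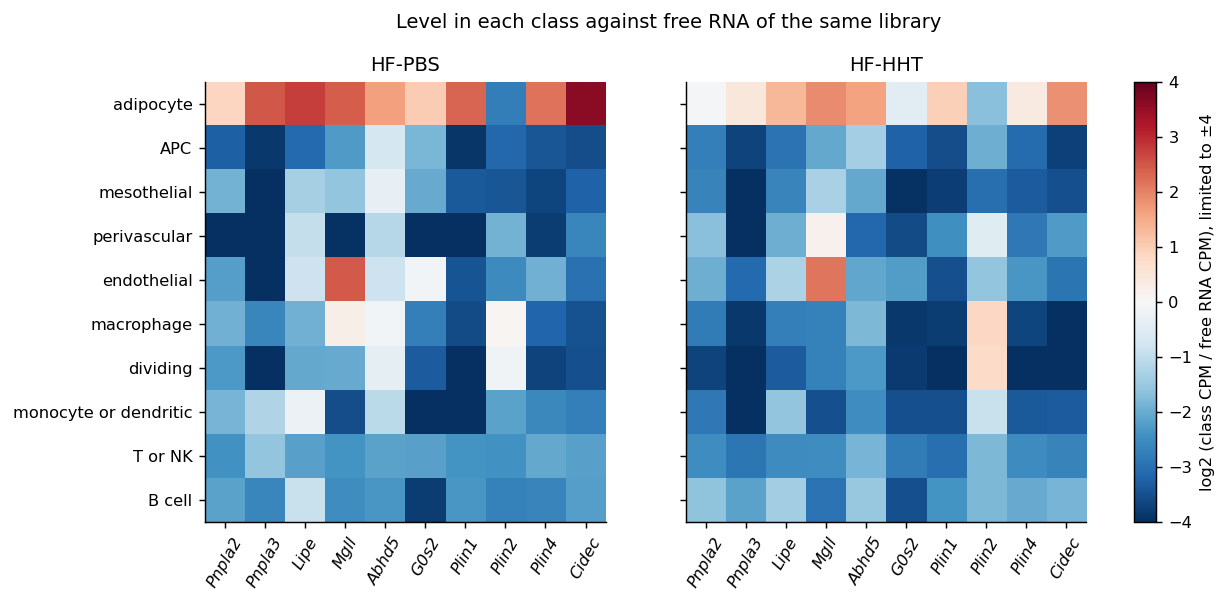
Level of each gene in each class of nuclei divided by its level in free RNA of the same library (color, log2 scale limited to ±4; red above free RNA, blue below). Adipocyte nuclei stand out for most genes, Mgll stands out in endothelium and Plin2 in macrophages.

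Mgll, which in vessels and brain also breaks down the endocannabinoid 2-arachidonoylglycerol, was well above free RNA in endothelial nuclei. It was at 1228 CPM in HF-PBS (546 UMIs) and 1196 CPM in HF-HHT (1196 UMIs), a log2 ratio of -0.04 (-0.19 to 0.11), so no difference was detectable at this depth. In a finer clustering, examined after the class values were seen, the blood vessel cluster (Mecom, Adgrl4, Ptprb) was at 2084 CPM and 1638 CPM. The lymphatic cluster (Mmrn1, Reln, Prox1) was at 646 CPM and 472 CPM. In both clusters Mgll was thus slightly lower in HF-HHT (-0.35 and -0.45 on the log2 scale), although the class value was nearly level. The blood vessel cluster held 46 of 98 nuclei of the class (HF-PBS) and 203 of 402 (HF-HHT). The CPM of a class weights nuclei by their UMIs, so these counts do not give the weight of each cluster.

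Plin2 was the member that marked macrophages. It stood at 919 CPM in macrophage nuclei of HF-PBS (19828 UMIs) and 801 CPM in those of HF-HHT (8671 UMIs), a log2 ratio of -0.20 (-0.23 to -0.16), and free RNA was at 880 and 453 CPM. Dividing nuclei were close to this, at 790 and 771 CPM, and every other class compared lay at or below 322 CPM. The lipid-associated macrophages (named from their own marker list) held most Plin2, 1130 CPM (HF-PBS) and 1291 CPM (HF-HHT). Resident macrophages held 487 and 465 CPM and monocyte-like ones 622 and 575 CPM. Within the lipid-associated state Plin2 was thus slightly higher in HF-HHT, whereas over all macrophages it was slightly lower. Its log2 ratio within that state was 0.19, below 1.5-fold and near the median of all genes there (0.15). That state numbered 1736 nuclei in HF-PBS against 637 in HF-HHT. With the same mix of subclusters in both libraries, an alternative chosen after the levels were seen, the ratio over macrophages was 0.06.

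Mgll, in contrast, was much lower in macrophages of HF-HHT. It was at 262 CPM in HF-PBS (5658 UMIs) and 41.6 CPM in HF-HHT (450 UMIs), a log2 ratio of -2.66 (-2.80 to -2.52). Of the 14397 measured genes of the class, 25.9% were higher and 8.48% lower, and the ratio of Mgll lay at percentile 0.306. Against the median of all genes of the class (0.16) it was -2.82. With TMM factors 20.3% of these genes were higher and 11.3% lower, and Mgll was at -2.81. The level of HF-PBS was above free RNA (223 CPM) and that of HF-HHT far below it (273 CPM). Against the sparser estimate of free RNA, the level of HF-PBS did not stand above it either. The part of free RNA in this difference was not tested. With the free RNA share of 10.3% and 8.97% subtracted, the log2 ratio was -3.83. These shares are medians over marker lists of wide range, and the value depends on them.

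The Mgll counts came mainly from lipid-associated macrophages, with 433 CPM (HF-PBS) and 80.2 CPM (HF-HHT), a log2 ratio of -2.43 (-2.61 to -2.26) within that state. In resident and monocyte-like macrophages it was at most 29.4 CPM in either library. A small unnamed subcluster led by Prg4 and Tgfb2 (54 and 17 nuclei) went the other way, at 105 and 203 CPM, from 44 and 31 UMIs. In the finer clustering, 1 lipid-associated cluster led by Mmp12, Il1rn, Tm4sf19 and Gpnmb held the high level: 914 CPM in HF-PBS (506 nuclei, 56.7% with a UMI of Mgll) and 193 CPM in HF-HHT (177 nuclei, 26.6%). The other cluster so named, led by Dlgap2, Myh15 and Dcstamp, stood at 93.8 and 18.1 CPM. An unnamed cluster led by Shisa9, Neurl2 and Atp6v0d2 (1066 and 371 nuclei) stood at 129 and 37.4 CPM. Mgll was thus lower within each of these clusters, and the cluster with the high level also held fewer nuclei in HF-HHT. With the same mix of the subclusters in both libraries the log2 ratio over macrophages was -2.03.

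**Figure D5:**
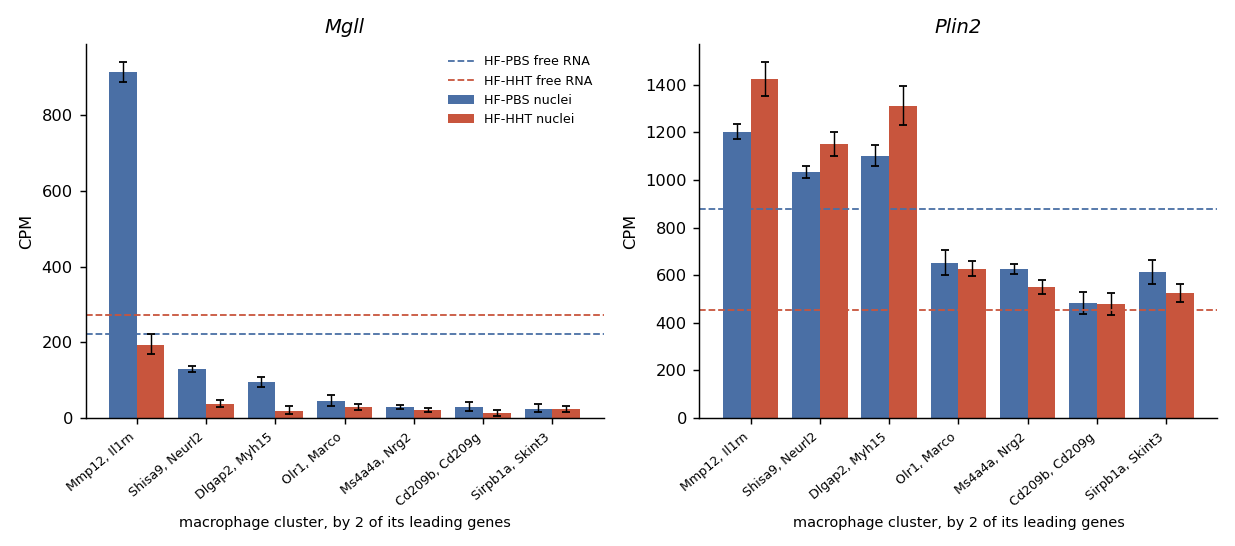
Levels of Mgll and Plin2 (CPM, bars with 95% Poisson intervals) in the finer macrophage clusters of at least 100 nuclei, with free RNA of each library as dashed lines. Mgll is high in the Mmp12 cluster of HF-PBS and lower there in HF-HHT. Plin2 is slightly higher in that cluster in HF-HHT, by less than 1.5-fold.

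Few nuclei held most of these counts. Of the lipid-associated macrophages of HF-PBS, 229 of 1736 (13.2%, 11.6% to 14.9%) held at least 5 Mgll UMIs and 89.5% of the Mgll counts of the state, and in HF-HHT 13 of 637 (2.04%, 1.09% to 3.46%) held at least 5 and 60.2% of the counts. At an equal depth of 2000 UMIs, which left out 19 nuclei of HF-PBS and 55 of HF-HHT, Mgll was found in 21.5% (19.6% to 23.5%) and 7.90% (5.84% to 10.4%) of the nuclei of the state, and Plin2 in 82.8% and 84.9%. The HF-PBS nuclei with at least 5 Mgll UMIs held no more adipocyte markers (175 CPM, 10 markers) than those with none (207 CPM). Their endothelial markers were at 17.7 against 15.7 CPM, with Cdh5 and Kdr of 7 markers at 0. Their lipid-associated markers were at 9967 CPM, against 4701 CPM in nuclei without Mgll. These nuclei were also deeper than those without Mgll (median 9007 against 5510 UMIs) and held fewer macrophage markers (1227 against 1839 CPM). Whether RNA of other cells supplied part of their Mgll counts was not tested. The split by Mgll counts was chosen after its levels were seen.

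Genes around the 10 members were read from a list of 83 genes in 5 groups. In adipocyte nuclei 70 were measured, 20 were higher, 6 lower and 44 neither, with a median log2 ratio of 0.31, the same as all measured genes (35.4% higher and 12.5% lower). Among 16 measured droplet proteins 4 were higher and 1 lower. Fitm2, which helps droplets to bud, had a log2 ratio of -0.03, the caveola proteins Cav1 and Cavin1 -0.27 and -0.52. Among 10 measured lipases and esterases 6 were higher and 2 lower. The carboxylesterase Ces1f was at 4.08 and 25.9 CPM, a log2 ratio of 2.67 (1.67 to 3.89).

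Of 18 measured genes of lipolytic signaling, 5 were higher and 1 lower. The lower one was Npr1, the natriuretic peptide receptor that signals through cGMP, named after its values were seen. It was at 10.2 and 3.32 CPM, from 20 and 33 UMIs (log2 ratio -1.62, -2.46 to -0.74). These levels lay below free RNA (17.1 and 25.4 CPM), and Npr1 did not pass the rule for naming genes. Gnal, a stimulatory G protein subunit, was at 5.61 and 90.8 CPM (log2 ratio 4.02, 3.17 to 5.02), and the receptor Adrb1 at 7.65 and 41.8 CPM (2.45). The adenylyl cyclases Adcy6 and Adcy5 had 0.39 and 0.34. Adrb3, the main adrenergic receptor of mouse white fat and a leading gene of the Cyp2e1 subcluster, was chosen after its values were seen: it was at 64.3 and 329 CPM, a log2 ratio of 2.35 (2.10 to 2.62). Of 15 measured antilipolytic genes 4 were higher and 2 lower. Irs1, which carries the insulin signal, was at 203 and 586 CPM (1.53), and Insr, Pde4d and Adora1 had 0.47, -0.09 and -0.24. Of 11 genes of fatty acid and glycerol handling only Pck1, which supplies glycerol for re-esterification, was called, at 171 and 640 CPM (1.90, 1.75 to 2.07). Aqp7, the glycerol channel, had 0.17, and Angptl4 and Slc27a1 had -0.41 and -0.53. With TMM factors the split of the 70 genes was 15 higher and 13 lower, and with size factors it was also 15 and 13. Of all measured genes 25.3% were then higher and 19.1% lower with TMM, and 24.5% and 19.97% with size factors.

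Across 24 points (each class of nuclei in each library), the pattern of Plin1 was most like those of Plin4 (Pearson r of log2(CPM + 1) 0.949), Dgat2 (0.942) and Adipoq (0.935), out of 13019 genes. That of G0s2 was most like Plin4 (0.898), Nnat (0.894) and Plin1 (0.879). Dgat2 and Adipoq belong to the markers that named adipocytes. These values are descriptions, since the points of a library share its free RNA.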

How the data were processed

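The authors sorted DAPI-stained nuclei from frozen tissue, made 10x 3′ v3.1 libraries and deposited raw UMI counts per gene and barcode from Cell Ranger 5.0.0 on the mm10 mouse genome. How introns were treated in counting is not stated in the sources used here. From these counts, nuclei were called by depth (3000 expected nuclei) or by difference from free RNA among barcodes with at least 500 UMIs (10000 simulations, false discovery rate 0.01). Free RNA was the sum of barcodes ranked 45000 to 90000 by UMIs. In the self-test on simulated data, shallow nuclei made like macrophages were not separated from free RNA, which resembles them, so shallow macrophages can be missing. Scrublet in scanpy 1.11.5 removed 475 and 462 nuclei as doublets, 0.8% per 1000 nuclei. Nuclei with over 400 genes, UMIs and genes under percentile 95 and mitochondrial UMIs under 0.5% were kept (6631 and 6440, median 4322 and 3966.5 UMIs), and 20 barcodes called as nuclei occurred in both libraries. They were integrated and clustered in Seurat 5.3.0 (R 4.3.3) on 2000 variable genes, without the 10 genes and their pathway genes, and clusters were named from 20 marker lists.

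UMIs were summed over the nuclei of a class and divided by all UMIs of the class (CPM). Genes with at least 20 counts over both libraries were measured, and a gene at 0 in 1 library was set at 3 counts. Levels have exact Poisson, shares exact binomial and ratios conditional binomial 95% intervals, computed with scipy 1.17.1, pandas 2.3.3 and numpy 2.4.6 under Python 3.11.15. Figures used matplotlib 3.10.9, and the alternative scaling edgeR 4.0.16. Nuclei are not replicates, so no test across them was run. Every member is named. Of each pathway group, the 2 highest and 2 lowest ratios are named among those with a minimum of 50 UMIs in the library where the gene is higher, 3 in the other and a level 2 times that of free RNA, where so many passed. The 10 genes and all lists were chosen with earlier results of these data known.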

Additional observations from a re-analysis of the deposited data

How the results depend on the processing

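With 1 library per condition, no replicate could be left out and the spread between mice is unknown. No paired analysis was possible because each condition has 1 library. The median log2 ratio of the members in adipocyte nuclei was 0.43 with TMM factors and 0.41 with median-of-ratios size factors, against 0.70. The median of all measured genes moved by the same amounts, to 0.04 and 0.02, against 0.31. At a size of 2-fold, 3 members were higher and 0 lower. With the same mix of subclusters 0 were lower at 1.5-fold, where 13.3% of all measured genes were lower. Of the pathway genes, 13 were lower with TMM factors, 13 with size factors, 3 after thinning to 2000 UMIs and 3 at 2-fold, against 6. Of all measured genes, 19.1% were lower with TMM factors, 19.97% with size factors and 14.5% after thinning, against 12.5%. After thinning, 58 pathway genes were measured, against 70. The share of all genes past 2-fold is not given, so the counts at 2-fold are not read against a background. With free RNA taken from barcodes with 10 to 100 UMIs, 13 member levels of other classes stood above it in HF-PBS, against 3, of which 7 were G0s2 and 4 Abhd5, whose levels in that estimate were 0 and 13.4 CPM, too few counts to compare with. Over 12 alternatives the log2 ratio in adipocyte nuclei ranged from 2.06 to 2.58 for G0s2, 1.24 to 1.61 for Abhd5, 0.99 to 1.39 for Plin1, 0.62 to 0.99 for Plin4, 0.56 to 1.01 for Pnpla2, 0.12 to 0.74 for Pnpla3, 0.13 to 0.51 for Lipe, -0.53 to 0.01 for Mgll, -0.18 to 0.96 for Plin2 and -0.90 to -0.58 for Cidec. That of Mgll in macrophages ranged from -3.83 to -2.03, with alternatives chosen after its levels were seen. Thinning to 2000 UMIs was a single random draw, so these ranges also hold sampling noise. The HF-PBS values of adipocyte nuclei rest on 152 nuclei, and G0s2 there on 39 UMIs. Without the upper limits of UMIs and genes, 301 nuclei of HF-PBS and 1170 of HF-HHT were named adipocytes.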
